A study of Mus musculus with 24 samples.

Results

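The replication-dependent histone genes of the mouse were followed in the brains and livers of mice that lacked 1 of 3 phenylalanine tRNA (tRNA-Phe) genes. The members were the protein-coding genes whose symbols are H1f1 to H1f5 or begin with H2ac, H2bc, H3c or H4c followed by a digit, which gave 67 genes of the 55469 in the expression tables: 5 H1, 18 H2A, 19 H2B, 12 H3 and 13 H4 genes. RNA-seq was done on 24 samples, 12 from brain and 12 from liver, with 3 male mice on the C57BL/6N background in each group. WT mice were compared with mice homozygous for a deletion of tRNA-Phe-1-1, of tRNA-Phe-2-1 or else of tRNA-Phe-3-1, made with Cas9 and a single guide RNA (written tRNA-Phe-1-1-/-, then tRNA-Phe-2-1-/- and, last, tRNA-Phe-3-1-/-). Each line was bred for at least 10 generations, the mice were 10 weeks old, and replicate mice came from different litters. Every knockout line therefore kept 6 of the 7 tRNA-Phe genes, the deletion was present in all cells of the animal, and RNA was isolated from snap-frozen tissue. Mice of a group are given below in the order A, B, C.

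Chromosomal DNA is wound around an octamer of the core histones H2A, H2B, H3 and H4, and the linker histone H1 binds where the DNA enters and leaves the particle. The replication-dependent genes supply these proteins when a cell copies its DNA, and their mRNAs normally end in a conserved stem-loop in place of a poly(A) tail. In tissues whose cells have mostly stopped dividing, such as adult brain and liver, little of this synthesis goes on, and some members, H1f2 among them, are known also to give polyadenylated mRNA. In a bulk tissue sample, fewer dividing cells and less histone RNA per cell cannot be told apart.

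The 3' stem-loop is shown because it sets these transcripts apart from most mRNAs. Capitals mark the loop. The forms were found in GENCODE vM39 transcripts as the 16-base hairpins with a TTTC loop and 6 base pairs that occur in 2 or more members within 100 bases after the coding sequence.
Stem-loop found in 26 members: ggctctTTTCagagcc
Stem-loop found in 7 members: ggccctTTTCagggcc
Stem-loop found in 2 members: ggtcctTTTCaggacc
The forms were searched on the transcript strand. They were held by 35 of the 67 members, 25 to 59 bases after the end of the coding sequence (median 32), against 38 of 21594 coding genes in all (0.176%). Of the 32 members without a match, 14 have only transcript models that end at the stop codon, so that their 3' end was not searched. H2ac25 and H2bc27 held a stem-loop, whereas no match was found for H2bc4, H2ac20, H3c13, H3c6, H2bc21 and H2bc18, the last of which has a model ending at the stop codon.

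The promoters of 3 members on chromosome 3 are shown because H2ac20 and H3c13 were lower in the tRNA-Phe-1-1-/- livers and H2bc18 in the tRNA-Phe-1-1-/- brains (values below). The sequences are from RefSeq on GRCm38.p6, run from 250 bases before to 50 bases after the start of the gene, and carry in capitals every CCAAT box (CCAAT), TATA box (TATAAA) and octamer (ATTTGCAT) on either strand.
H2ac20, chr3:96220831-96221130, reverse strand: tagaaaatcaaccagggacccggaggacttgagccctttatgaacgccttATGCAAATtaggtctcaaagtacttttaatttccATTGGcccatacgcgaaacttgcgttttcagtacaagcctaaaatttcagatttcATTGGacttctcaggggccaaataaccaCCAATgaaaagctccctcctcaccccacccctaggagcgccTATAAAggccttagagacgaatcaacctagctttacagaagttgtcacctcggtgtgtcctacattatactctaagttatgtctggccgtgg
H3c13, chr3:96268404-96268703, forward strand: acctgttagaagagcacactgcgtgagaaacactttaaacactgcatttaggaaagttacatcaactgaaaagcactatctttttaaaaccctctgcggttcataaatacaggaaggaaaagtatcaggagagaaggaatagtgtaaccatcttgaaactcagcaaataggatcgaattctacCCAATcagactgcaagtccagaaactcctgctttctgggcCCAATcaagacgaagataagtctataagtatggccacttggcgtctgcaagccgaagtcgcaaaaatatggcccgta
H2bc18, chr3:96269450-96269749, forward strand: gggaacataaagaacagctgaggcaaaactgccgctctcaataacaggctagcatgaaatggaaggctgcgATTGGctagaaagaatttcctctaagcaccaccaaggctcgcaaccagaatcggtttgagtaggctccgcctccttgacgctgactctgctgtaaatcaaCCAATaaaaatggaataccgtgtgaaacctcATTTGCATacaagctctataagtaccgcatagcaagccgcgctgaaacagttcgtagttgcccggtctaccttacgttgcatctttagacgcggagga
A promoter was found for 57 of the 67 members. A CCAAT box lay in 49 of them (86.0%), against 37.9% of 27025 mouse promoters of the same length. All the H1, H2A, H2B and H3 promoters held one, but only 3 of the 11 H4 promoters did. A TATA box lay in 34 (59.6%, against 14.2% of all promoters). The octamer lay in 12 (21.1%, against 1.75%), of which 6 were H2A and 6 H2B genes. None of the 3 motifs contains another, and a match describes the sequence only.

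Histone mRNAs hold few phenylalanine codons: H1 and H2A messages have 1 (median), H4 messages 2 and H3 messages 4. Phenylalanine made up a median of 1.59% of the codons of the members and 3.73% over 21520 coding genes. Of the members' phenylalanine codons 85.9% were TTC, which pairs exactly with the GAA anticodon of tRNA-Phe, against 54.6% over the coding genes. Members are also near copies of one another. The coding sequence had a median identity of 98.4% to its nearest relative, 51 members were more than 95% identical to another member and 10 were identical to one. In 24 members at least 50% of the 100-base windows of the transcript also occurred in another member, and 9 shared none, H2ac25 and H2bc18 among them.

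The files give read counts that the authors divided by a size factor for each library, within each tissue (normalised counts, not divided by transcript length). They correspond to 30365760 to 46225360 reads per brain and 32276896 to 51584522 per liver. Levels are therefore compared between mice of 1 tissue and not between genes. A gene was tested where its mean normalised count over the 12 mice of a tissue was at least 10. This held for 61 members in brain and for 54 in liver, and the 54 were tested in both. H2ac1, H2ac12, H2ac23, H2bc1, H3c14 and H4c17 were too low to compare in either tissue, and H2ac13, H2ac22, H2bc13, H2bc22, H2bc24, H2bc26 and H2bc27 were too low in liver only. The members left out had means of at most 1.33 in brain and 8.67 in liver, and 4 members were listed at 0 in all 12 mice of each tissue. The tested members had a median level of 191 normalised counts in brain and 83.1 in liver.

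Each tissue held its own markers, with summed neuronal marker counts of 61646 to 121001 in brain against at most 456 in liver. Summed hepatocyte markers (Alb, Apoa1, Ttr, Serpina1a and Cyp2e1) were 1899185 to 2291181 in the tRNA-Phe-1-1-/- livers and 2087660.2 to 2299060.1 in the tRNA-Phe-2-1-/- livers. Both were below the 2453895 to 3007609.6 of the WT livers, and the tRNA-Phe-3-1-/- livers had 2673479.7 to 3103742. In brain the same genes summed to 28.1 to 50381, and which cells they came from there was not tested. The brain libraries with the highest sums were tRNA-Phe-2-1-/- mouse C and tRNA-Phe-3-1-/- mouse C. In brain, summed erythroid markers were 5780.1 to 7298 in the tRNA-Phe-1-1-/- brains and 4961 to 11815 in the tRNA-Phe-2-1-/- brains, against 11676 to 21066 in WT. The tRNA-Phe-3-1-/- brains had 12357 to 27960. The part of these marker differences in the histone values was not tested.

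Single genes held between 21.3% and 82.1% of the reads of their histone family. In brain, H1f4 held 39.9% of the summed H1 counts, H2ac25 39.0% of H2A, H2bc4 24.9% of H2B, H3c6 25.1% of H3 and H4c8 21.3% of H4. In liver the leading genes were H1f2 (47.2%), H2ac19 (60.3%), H2bc4 (82.1%), H3c6 (33.7%) and H4c8 (33.1%). These shares are of read counts, and transcripts of unequal length weigh unequally in them. In the WT livers the H2B total was thus mainly a single gene, H2bc4, at 3796, 3551 and 2998 normalised counts.

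The question of the main comparison was whether loss of tRNA-Phe-1-1 changes these messages. In the tRNA-Phe-1-1-/- livers, 5 of 54 members differed from WT: H3c13, H2ac20 and H3c6 were lower, and H2bc4 and H2ac25 were higher (limma, adjusted p under 0.05, Benjamini-Hochberg over 15856 genes). That was 9.26% of the tested members, against 17.3% of all genes in this comparison, a share below that background. H3c13 and H2ac20 are on chromosome 3, H3c6 and H2bc4 in the main histone block of chromosome 13 and H2ac25 on chromosome 11. H3c13 and H2ac20 were called whichever mouse was left out, and they alone were called without WT mouse C or without tRNA-Phe-1-1-/- mouse A.

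H3c13, which encodes a core histone H3, had 206, 214 and 175 normalised counts in the WT livers and 89.4, 106 and 111 in the tRNA-Phe-1-1-/- livers. Its mean fell from 199 ± 20.7 to 102 ± 11.1 (SD, n = 3; log2 fold change -0.96, SE 0.16, adjusted p = 0.00222, limma). Every tRNA-Phe-1-1-/- liver lay below every WT liver, and also below the tRNA-Phe-2-1-/- (151, 185 and 188) and tRNA-Phe-3-1-/- livers (217, 181 and 237). H3c13, H3c14 and H3c15 have nearly the same coding sequence, and H3c15 had 60.6, 38.5 and 29.8 counts in WT and 95.0, 118 and 57.3 in the tRNA-Phe-1-1-/- livers. The sum of the 3 copies was 267, 253 and 205 in WT and 184, 224 and 168 in the knockout. The summed groups overlapped, and the sum was not called (log2 fold change -0.33, adjusted p = 0.240, limma).

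H2ac20, an H2A gene, shares only 6.41% of its 100-base windows with other members. Its levels were 302, 295 and 311 in the WT livers and 169, 214 and 167 in the tRNA-Phe-1-1-/- livers (log2 fold change -0.73, SE 0.15, adjusted p = 0.00612, limma). The other 2 lines ranged with WT, at 275, 333 and 289 for tRNA-Phe-2-1-/- and 261, 351 and 278 for tRNA-Phe-3-1-/-. H3c6, the H3 gene with the highest read count, stood at 465, 495 and 415 in WT and 276, 370.3 and 335 in the tRNA-Phe-1-1-/- livers (log2 fold change -0.49, SE 0.15, adjusted p = 0.0437, limma). The H3c6 groups did not overlap, but 42.9% of its windows occur in other members.

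H2bc4, the H2B gene that leads its family in liver, had 3796, 3551 and 2998 counts in WT and 4839.7, 4562 and 4746 in the tRNA-Phe-1-1-/- livers (log2 fold change 0.46, SE 0.11, adjusted p = 0.0178, limma). It was also above every WT value in the tRNA-Phe-2-1-/- livers, at 4546, 4737 and 4159.8, without passing the test (log2 fold change 0.38, adjusted p = 0.179, limma). The tRNA-Phe-3-1-/- livers overlapped WT at 3291, 3859 and 4370.3. H2ac25, an H2A gene on chromosome 11 that shares no window with another member, had 167, 109 and 127 counts in WT and 209.8, 189 and 228 in the tRNA-Phe-1-1-/- livers (log2 fold change 0.65, SE 0.18, adjusted p = 0.0272, limma). All 3 knockout livers were above the highest WT liver.

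**Figure D1:**
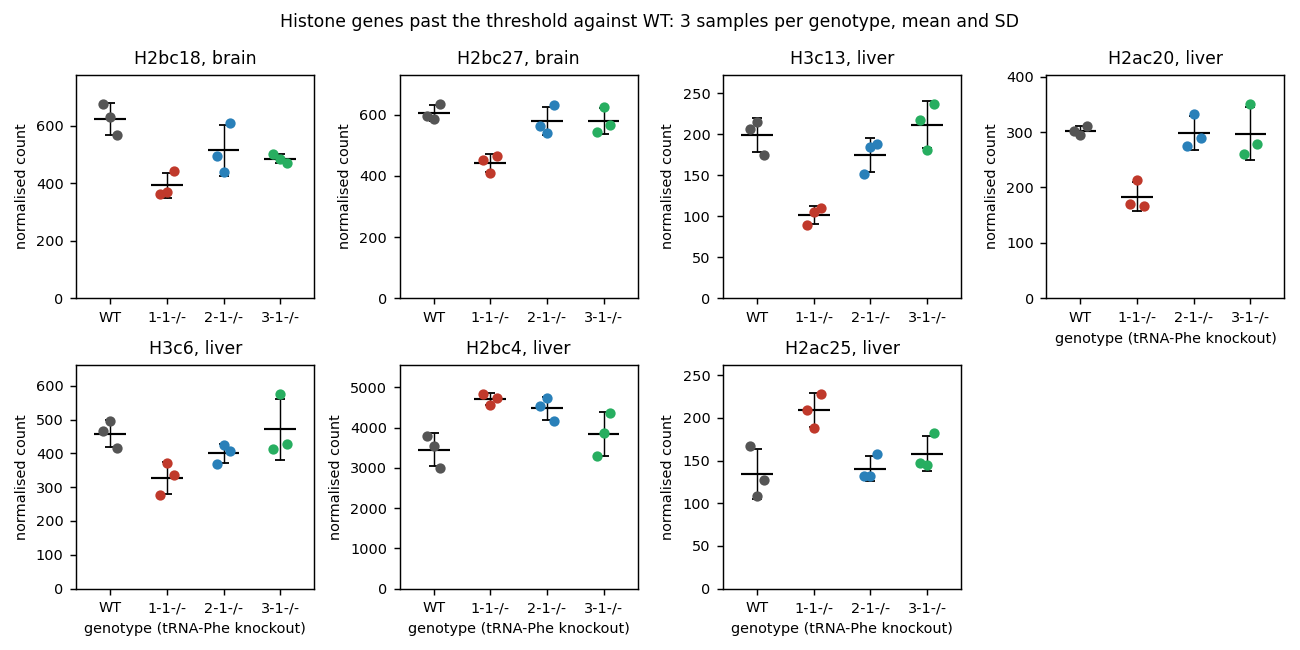
Normalised counts of the 7 members called in a comparison with WT, 1 point for each mouse and a bar at the mean with SD of 3 mice, by genotype. H3c13, H2ac20 and H3c6 are lowest and H2bc4 and H2ac25 highest in the tRNA-Phe-1-1-/- livers, while H2bc18 and H2bc27 are lowest in the tRNA-Phe-1-1-/- brains.

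Over all 54 tested members, 31 were higher and 23 lower in the tRNA-Phe-1-1-/- livers (49.4% of all genes were higher; median log2 fold change 0.08, against 0.00 over all genes). Without tRNA-Phe-1-1-/- mouse B the median was -0.08 (23 higher, 31 lower). The groups did not overlap for 15 members (27.8%), against 34.8% of all genes. Of the H2B genes 11 of 13 were higher (median 0.30), and the summed H2B counts were 4689.8, 4310.2 and 3745 in WT and 5705, 5764 and 5625 in the knockout. The largest positive change was that of H2bc23, 61.6, 44.5 and 10.4 in WT against 77.2, 93.5 and 124, which did not pass the test (log2 fold change 1.61, adjusted p = 0.206, limma). In the same livers the summed hepatocyte markers given above were below every WT liver, and 3 of 4 erythroid markers were lower (sum 9408 to 11360.4, against 16129 to 20835 in WT). Of the leukocyte markers 2 of 5 were higher (sum 2369 to 3890.0, against 1942 to 2738), and 1 of 3 markers of liver endothelium and Kupffer cells was lower (sum 7388 to 10843, against 10802 to 11333). The part of these cell types in the histone values was not tested.

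In the tRNA-Phe-1-1-/- brains, 2 of 61 members differed from WT, both H2B genes and both lower (limma, adjusted p under 0.05 over 19228 genes). This was 3.28% of the members, against 1.05% of all genes. H2bc18 had 677, 631 and 567 normalised counts in the WT brains and 364, 371 and 442 in the tRNA-Phe-1-1-/- brains (log2 fold change -0.67, SE 0.13, adjusted p = 0.0395, limma). The tRNA-Phe-2-1-/- brains (493, 439 and 609.9) and tRNA-Phe-3-1-/- brains (502, 483 and 471) did not pass the test; the former reached into the WT range and the latter lay below it. H2bc27 had 596, 584 and 635 counts in WT and 451, 409 and 464 in the tRNA-Phe-1-1-/- brains (log2 fold change -0.46, SE 0.09, adjusted p = 0.0480, limma). Both groups were clear of WT, but each call was lost when any 1 of the 6 brains compared was left out.

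Counts of the linker histone H1f4 were 1685, 2225 and 1957 in the WT brains and 1419, 996 and 1175 in the tRNA-Phe-1-1-/- brains, which fell just short of the threshold (log2 fold change -0.71, SE 0.16, adjusted p = 0.0664, limma). H1f2 had 1431, 1693 and 1358 in WT and 1021, 1048 and 1287 in the same knockout (log2 fold change -0.42, adjusted p = 0.108, limma). DESeq2 on the recovered reads called both in addition to H2bc18 and H2bc27, and its share of all genes is not given here. All 5 H1 genes had lower means (median log2 fold change -0.42). Over the 61 members 43 were lower and 18 higher (29.5% higher, against 49.9% of all genes; median -0.17, against -0.00 for all genes), 11 had an unadjusted p under 0.05 (18.0%, against 15.9% of all genes), and for 14 of the 61 the groups did not overlap (against 25.2% of all genes). Without tRNA-Phe-1-1-/- mouse B the members were 28 higher and 33 lower (median -0.04), and without mouse C 11 higher and 50 lower (median -0.29). The share of members whose groups did not overlap was close to the background. RNAs without a poly(A) tail had a median of -0.51 in the same brains (1 of 6 higher, 0 past the limma test and 4 at an unadjusted p under 0.05), while their summed counts overlapped WT, at 234264 to 277574 against 241139 to 259603. Their part in the histone values was not tested.

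The genotype effect differed between the tissues for 1 member, H2bc18. In the tRNA-Phe-1-1-/- livers its counts were 72.5, 89.9 and 73.7, against 64.5, 54.4 and 55.8 in WT (log2 fold change 0.43, adjusted p = 0.146, limma), in the direction opposite to the brain. The change in liver minus the change in brain was 1.10 (SE 0.21, adjusted p = 0.00380, limma over 14456 genes of both tissues), a test that was added after the data had been seen. It called 1 of 54 members for tRNA-Phe-1-1-/-, against 6.94% of all genes. It called 0 members for tRNA-Phe-2-1-/- (0.0346% of all genes) and 0 for tRNA-Phe-3-1-/- (0.45%). For H2bc18 the difference in those lines had the same direction, at 0.45 and 0.48, without passing the test. An unadjusted p under 0.05 was reached by 7 members for tRNA-Phe-1-1-/-, 8 for tRNA-Phe-2-1-/- and 6 for tRNA-Phe-3-1-/-. The share of all genes at that level was not computed, so these counts have no background to compare with. The sample labels do not say whether a brain and a liver came from the same mouse. The fit across both tissues treated all samples as independent.

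In the tRNA-Phe-2-1-/- brains, 0 of 61 members passed the test, and 0.0% of all genes did (lowest adjusted p among the members 0.892, limma, with 0 calls also by edgeR and DESeq2 on the recovered reads). Most fitted means were lower: 59 members had a lower and 2 a higher fitted mean than WT, so that 3.28% were higher, against 49.7% of all genes, and the median log2 fold change was -0.31. An unadjusted p under 0.05 was reached by 11 members (18.0%, against 5.57% of all genes). The groups did not overlap for 17 members, all lower (27.9%, against 11.4% of all genes, of which 6.02% higher and 5.43% lower). No H1, H2B, H3 or H4 gene was higher, and H2A had the 2 exceptions.

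The summed counts of all members were 25432, 27340.4 and 25656 in the WT brains and 22119.8, 20866 and 25337 in the tRNA-Phe-2-1-/- brains, a log2 ratio of -0.20. All 3 knockout brains were below the lowest WT brain, and mouse C was nearest to it. That mouse also had the highest sum of Alb, Apoa1, Ttr, Serpina1a and Cyp2e1 among the brains. Without that mouse 58 of 61 members were lower (median log2 fold change -0.41). H4c3, among the highest H4 genes, had 2307, 2467 and 2314 counts in WT and 1824, 1818 and 2288 in tRNA-Phe-2-1-/- (log2 fold change -0.27, adjusted p = 0.894, limma). H4c1 had 425, 464 and 498 and 383, 277 and 371 (log2 fold change -0.44, adjusted p = 0.892, limma), and H3c13 had 209.6, 295 and 248 and 198, 164 and 202. In each of these genes the 3 knockout brains were below the 3 WT brains. RNAs that lack a poly(A) tail had lower means too: 0 of 6 tested were higher in the tRNA-Phe-2-1-/- brains (median log2 fold change -0.31), with summed counts of 187169.8, 161414 and 232323 against 259603, 241139 and 255063 in WT, and the part of the library preparation in the histone values was not tested. Genes of mitosis had a median of -0.42 (3 of 10 higher) and genes of S phase one of -0.14 (6 of 26 higher), and 0 passed the limma test in either list, with 1 mitosis gene and 0 S phase genes at an unadjusted p under 0.05. Erythroid markers had lower means in these brains too, with 0 of 4 higher (median -0.82). Of these 0 passed the limma test and 3 had an unadjusted p under 0.05. Their part in the histone values was not tested.

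**Figure D2:**
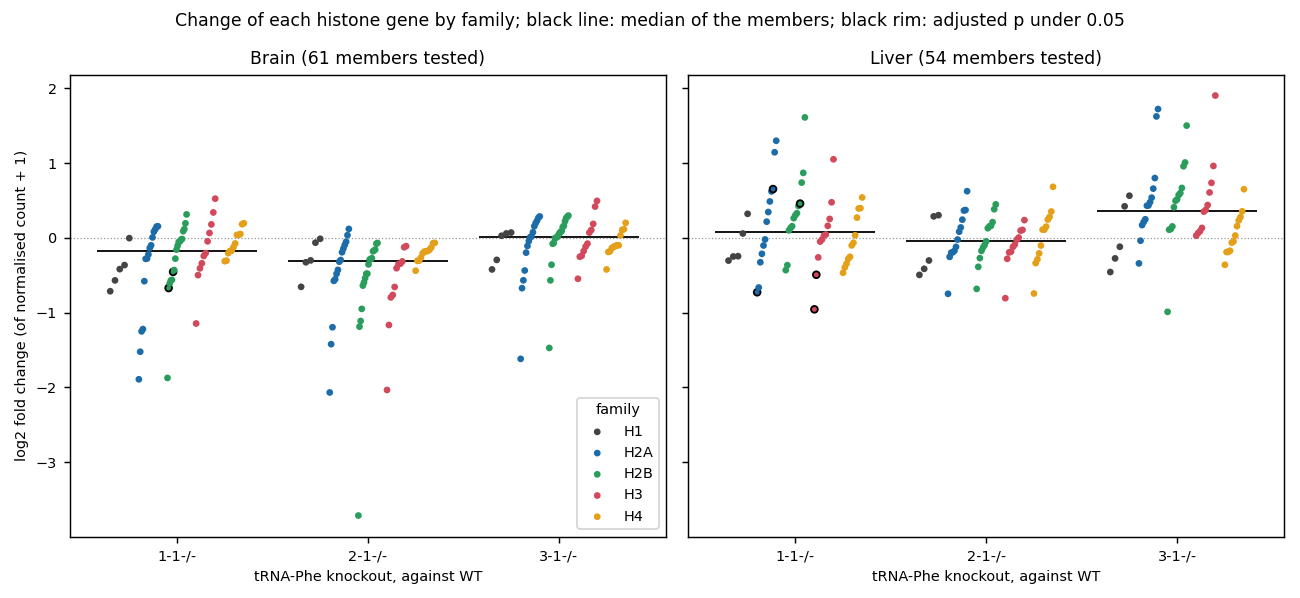
Fitted log2 fold change against WT of every tested member, by family, for each knockout line and tissue, 1 point for each gene with called genes marked. In the tRNA-Phe-2-1-/- brains 59 of 61 points lie below 0, whereas in the tRNA-Phe-3-1-/- livers 42 of 54 lie above it.

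In the tRNA-Phe-2-1-/- livers, 0 of 54 members passed the test, against 0.132% of all genes (lowest adjusted p 0.179, that of H2bc4, limma, with 0 calls by edgeR and DESeq2). An unadjusted p under 0.05 was found for 3 members (against 14.9% of all genes). The directions were mixed, with 25 higher and 29 lower (50.2% of all genes were higher; median log2 fold change -0.04), and the groups did not overlap for 10 members (18.5%, against 25.4% of all genes). H4c1 had the most positive change, 75.2, 95.9 and 45.4 counts in WT against 129.8, 116 and 91.3, and H3c11 had the most negative change, 54.7, 85.0 and 45.4 in WT against 38.5, 31.5 and 31.3. Neither passed the test (adjusted p = 0.349 and 0.453, limma). The lower values of the tRNA-Phe-2-1-/- brains were not seen in these livers, and the test of the difference between the tissues, made gene by gene, called 0 members.

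The tRNA-Phe-3-1 gene itself lies among histone genes, and the next comparison bears on whether its deletion changed them. In RefSeq on GRCm38.p6, 2 tRNA-Phe genes are on chromosome 13. The one at chr13:21882885-21882957 was taken as tRNA-Phe-3-1 and the other, at chr13:21161405-21161477, as the undeleted tRNA-Phe-1-3, by the order of the guide targets along the chromosome. Around tRNA-Phe-3-1 lies a block of 23 members, from position 21715711 to 22043658. The main block of 30 members on the same chromosome spans 23531044 to 23934913, 10 members are on chromosome 3 between 96219885 and 96270192, 3 are on chromosome 11 and 1 is on chromosome 6. A RefSeq position was found for 62 of the 67. H2bc24, a tested member of the block around tRNA-Phe-3-1, had no position under that symbol, and RefSeq lists a coding gene named H4bc24, no member by its symbol, at 45355 bp from tRNA-Phe-3-1. Of the tested members with a position the nearest were H2ac24 at 49410 bp and H4c18 at 50688 bp, followed by H2bc23 (72686 bp), H2bc22 (81324 bp), H2ac22 (95637 bp) and H3c11 (99488 bp), all at lower coordinates.

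In the tRNA-Phe-3-1-/- brains, 0 of 61 members passed the test, and 0.0% of all genes did (limma, with 0 calls by edgeR and DESeq2 and 2 members at an unadjusted p under 0.05, against 12.3% of all genes). Of the members 32 were higher and 29 lower (50.4% of all genes were higher; median log2 fold change 0.01, which turned negative with 1 mouse left out or another scaling), and the groups did not overlap for 6 (9.84%, against 16.4% of all genes). H2ac24, the nearest member with a position, had 99.2, 152 and 149 counts in the WT brains and 131, 184 and 109 in the tRNA-Phe-3-1-/- brains (log2 fold change 0.07, SE 0.29). H4c18 had 1545, 1641 and 1508 in WT and 1643, 1395 and 1255 in the knockout (log2 fold change -0.14, SE 0.12). Both groups overlapped WT. Over the 20 tested members of the surrounding block, 11 were higher (median 0.02), and over the 28 of the main block 11 were higher (median -0.09). No member of the block around the deleted gene was detectably changed in the tRNA-Phe-3-1-/- brains at this number of mice. Of the same 20 members 6 were higher in the tRNA-Phe-1-1-/- brains (median -0.12). In the tRNA-Phe-2-1-/- brains 0 of 20 were higher (median -0.53), and 0 of 28 in the main block (median -0.30).

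In the tRNA-Phe-3-1-/- livers, 0 of 54 members passed the limma test, against 0.883% of all genes (lowest adjusted p 0.140). By edgeR 0 members were called and by DESeq2 1, H2bc21, and their shares of all genes are not given here. An unadjusted p under 0.05 was found for 9 members (16.7%, against 16.1% of all genes). Most fitted means were higher: 42 were higher and 12 lower, so that 77.8% were higher, against 51.3% of all genes, with a median log2 fold change of 0.35. The groups did not overlap for 13 members, 9 higher and 4 lower (24.1%, against 19.9% of all genes, of which 9.85% higher and 10.1% lower). By family 11 of 11 H3, 12 of 13 H2B and 11 of 13 H2A genes were higher, but 6 of 12 H4 and 2 of 5 H1 genes. The median fell to 0.17 without tRNA-Phe-3-1-/- mouse A and to 0.18 without WT mouse C.

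The largest positive change was that of H3c8, an H3 gene with few reads, at 4.89, 14.8 and 9.08 counts in the WT livers and 50.9, 30.4 and 29.2 in the tRNA-Phe-3-1-/- livers (log2 fold change 1.90, SE 0.66, adjusted p = 0.188, limma). H2bc21, an H2B gene on chromosome 3, had the largest change in the other direction, with 155, 129 and 148 counts in WT and 91.2, 59.6 and 68.4 in the knockout (log2 fold change -0.99, SE 0.30, adjusted p = 0.140, limma). For both genes the 3 knockout livers were clear of the 3 WT livers. Near the deleted gene 13 of 15 tested members were higher (median 0.56, from -0.19 to 1.62), and in the main block of the same chromosome, 21 of 28 were (median 0.39). In the livers of the lines that keep tRNA-Phe-3-1, the same 15 members were higher in 10 cases for tRNA-Phe-1-1-/- (median 0.35). For tRNA-Phe-2-1-/- 6 of the 15 were higher (median -0.20).

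The summed counts of the block around tRNA-Phe-3-1 were 1302, 1343 and 1018 in the WT livers and 2106, 1112 and 1862 in the tRNA-Phe-3-1-/- livers. Mouse B was within the WT range, so the groups overlapped. H2ac24 had 93.8, 75.1 and 46.7 in WT and 145, 69.8 and 80.4 in the knockout (log2 fold change 0.43, adjusted p = 0.557, limma). H4c18 had 748, 627 and 501 and 879.8, 567 and 985 (log2 fold change 0.35, adjusted p = 0.461, limma). H2ac24 was above the WT range in mouse A alone, and H4c18 in mice A and C. Of the protein-coding genes within 500 kb of tRNA-Phe-3-1 that are no histone genes, 8 were tested in brain and 7 in liver, and 0 passed the limma test in either tissue (1 in brain and 2 in liver at an unadjusted p under 0.05).

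**Figure D3:**
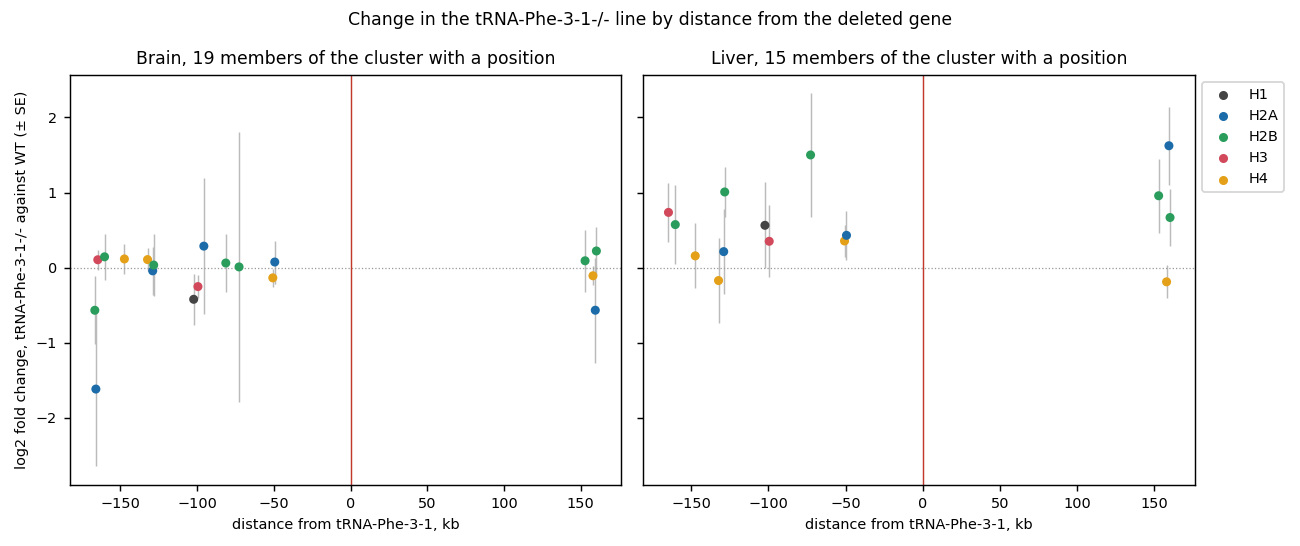
Fitted log2 fold change of the tested members of the block around tRNA-Phe-3-1 that have a position, in the tRNA-Phe-3-1-/- brains and livers against their distance from the tRNA-Phe-3-1 gene in kb, coloured by family, with bars for the SE. Most of the 15 liver points lie above 0, whereas the 19 brain points lie on both sides of it.

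Genes of cell division had higher means in the tRNA-Phe-3-1-/- livers as well. The summed counts of 10 mitosis genes were 1357, 447 and 1700.1 against 429.9, 419 and 409.9 in WT, so that mice A and C stood far above WT and mouse B close to it. All 10 had higher means (median log2 fold change 1.19), with 0 past the limma test and 4 at an unadjusted p under 0.05. Kif11, a motor protein of the mitotic spindle, had the lowest p, at 39.1, 51.4 and 46.7 counts in WT and 128, 77.6 and 156 in the knockout (log2 fold change 1.33, SE 0.29, adjusted p = 0.0590, limma). Of the S phase genes 24 of 26 were higher (median 0.34), with summed counts of 9530.1, 8977 and 9853 against 6486, 7173 and 6618 and no overlap between the groups, with 0 past the limma test and 10 at an unadjusted p under 0.05. All 11 tested histone chaperones and assembly factors had higher means too (median 0.24, 0 past the limma test and 3 at an unadjusted p under 0.05). RNAs without a poly(A) tail had lower means, with 0 of 7 higher (median -1.06), 0 past the limma test and 4 at an unadjusted p under 0.05. The part of cell division and of the library preparation in the histone values was not tested.

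Compared with one another, the knockout lines differed in few members. In liver, H3c13, H2ac20 and H2ac25 set the tRNA-Phe-1-1-/- line apart from tRNA-Phe-2-1-/- (3 of 54, against 15.9% of all genes). H3c13, H2ac20 and H3c6 set it apart from tRNA-Phe-3-1-/- (3 of 54, against 16.1%). The H3c13 calls were lost in both comparisons when its near-identical copies were summed with it. H2ac20 differed by -0.70 from tRNA-Phe-2-1-/- (adjusted p = 0.00849, limma) and by -0.69 from tRNA-Phe-3-1-/- (adjusted p = 0.00951, limma) on the log2 scale. Between the tRNA-Phe-2-1-/- livers and those of tRNA-Phe-3-1-/- mice 0 members and 0.0% of all genes differed, with 0 members by edgeR and DESeq2 and 6 at an unadjusted p under 0.05 (6.68% of all genes). In brain, limma and edgeR called 0 members in each of the 3 pairs. By limma 0.53% of all genes were called for tRNA-Phe-1-1-/- with tRNA-Phe-2-1-/-, 2.11% for tRNA-Phe-1-1-/- set against tRNA-Phe-3-1-/-, and 0.0% for the last pair. DESeq2 called 4, 5 and 1 members, and its share of all genes is not given here. An unadjusted p under 0.05 was found for 17, 15 and 13 members in these pairs, against 13.7%, 19.5% and 9.93% of all genes. A test for any difference among the 4 genotypes called H2bc4, H2ac20 and H3c13 in liver (3 of 54, against 17.0% of all genes). With near-identical copies summed, H2bc4 and H2ac20 kept this call and H3c13 did not. In brain the test among the 4 genotypes called 0 of 61 members (0.634% of all genes). There 18 had an unadjusted p under 0.05 (29.5%, against 17.6% of all genes). The 3 comparisons with WT share the WT mice of a tissue and are not independent.

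The summed histone counts differed little in liver. They were 21049, 20435 and 18906 normalised counts in WT, 19809.6, 22979 and 21439.7 in tRNA-Phe-1-1-/-, 20829, 23523 and 21122 in tRNA-Phe-2-1-/- and 20122, 20548 and 22486 in tRNA-Phe-3-1-/- mice. The log2 ratios to WT were 0.09, 0.12 and 0.06, and the groups overlapped. In the tRNA-Phe-1-1-/- brains they were 23319, 20643 and 26703, with mouse C within the WT range (log2 ratio -0.15), and in the tRNA-Phe-3-1-/- brains 24413, 26962 and 23665 (log2 ratio -0.06). These totals weigh the most counted genes most, and are given without a test.

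**Figure D4:**
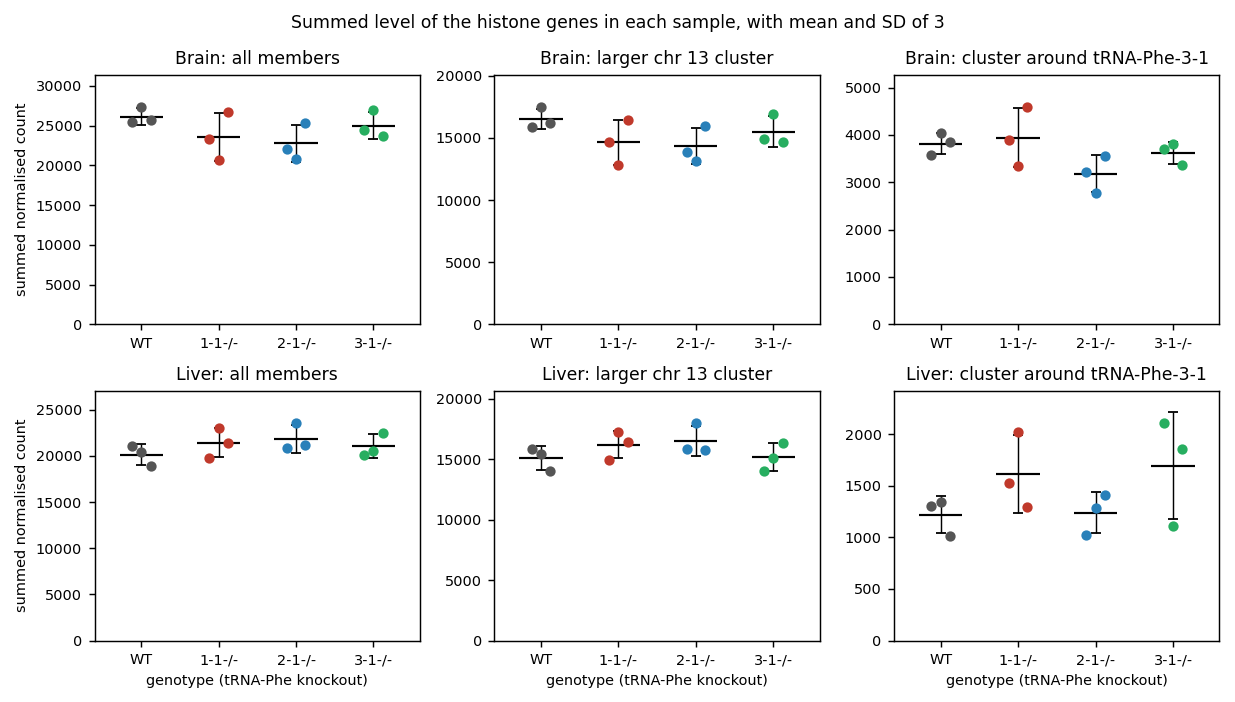
Summed normalised counts for each mouse, by genotype and tissue, with a bar at the mean and SD of 3 mice. The sums are over all members, the main chromosome 13 block and the block around tRNA-Phe-3-1. The tRNA-Phe-2-1-/- brains lie below the lowest WT brain in the sums over all members and the block around tRNA-Phe-3-1. In the main block they overlap WT, and the liver groups overlap.

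Near-identical members limit what single counts show. H2bc23 in brain had 237, 32.8 and 37.2 counts in WT and 135, 222 and 0 in tRNA-Phe-2-1-/-, while its near copy H2bc24 had 41.1, 298 and 222 and 3.08, 0 and 304. Mice of 1 group thus had either gene high and the other low. The sums of the pair, 278, 331 and 259.6 in WT and 138, 222 and 304 in tRNA-Phe-2-1-/-, varied less. H2bc24 had the most negative fold change of any member in the tRNA-Phe-2-1-/- brains (-3.71) with an SE of 2.20, which does not pass the test. In all, 11 members fell into 5 groups of nearly identical coding sequence. H2ac18 and H2ac19 were the most counted of these in liver, where their sum was 2496, 2394 and 2662 in WT and 2315, 2396 and 2689 in tRNA-Phe-1-1-/- mice. With copies summed, which was done after the data had been seen, 4 of 52 features were called in the tRNA-Phe-1-1-/- livers (H2ac20, H2ac25, H2bc4 and H3c6) and the same 2 of 58 in the tRNA-Phe-1-1-/- brains.

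**Figure D5:**
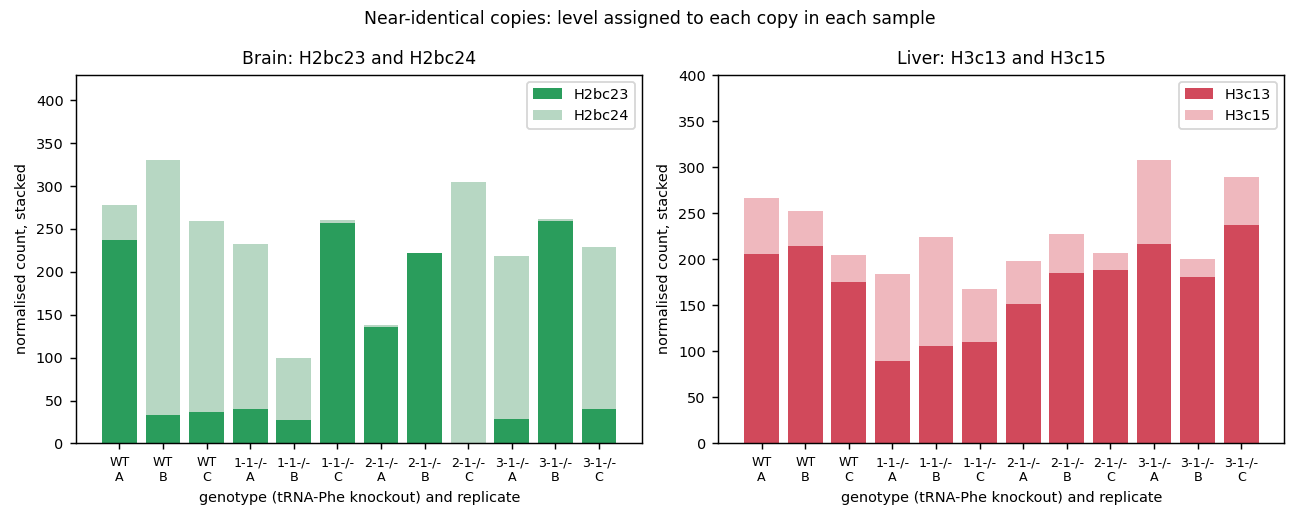
Normalised counts of near-identical copies in each mouse, shown singly and as their sum. In brain H2bc23 and H2bc24 change places from mouse to mouse while their sum is steadier, and in liver the lower H3c13 counts of tRNA-Phe-1-1-/- mice stand beside higher H3c15 counts.

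Genes that work with these histones changed in part in the tRNA-Phe-1-1-/- livers. Of the genes listed as replication-independent histones, 1 of 10 rose and 1 fell. H2ax, the variant phosphorylated at DNA breaks, had 106, 132 and 90.8 counts in WT and 250.3, 197 and 205 in the knockout (log2 fold change 0.99, SE 0.19, adjusted p = 0.00498, limma). H2az2, which encodes a form of H2A.Z, had 683, 656 and 585 and 428, 427 and 594 (log2 fold change -0.42, SE 0.13, adjusted p = 0.0420, limma). For H2ax the groups were apart, whereas for H2az2 mouse C of the knockout lay within the WT range.

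Of the factors that make and process histone mRNA, 3 of 11 rose. Sympk, the scaffold of the 3' end cleavage complex, had 2135, 1943 and 2101 counts in the WT livers and 2576, 2851 and 2662 in the tRNA-Phe-1-1-/- livers (log2 fold change 0.39, SE 0.08, adjusted p = 0.00617, limma). Eri1, the exonuclease that trims the stem-loop end, had 448, 469 and 438 and 566, 609 and 538 (log2 fold change 0.34, SE 0.09, adjusted p = 0.0306, limma). Cpsf2 of the cleavage complex rose as well (log2 fold change 0.30, adjusted p = 0.0256, limma). These shares compare with 17.3% of all genes called in that comparison. Of 11 chaperones and assembly factors 0 passed (1 at an unadjusted p under 0.05), and of 10 mitosis genes 0 passed (0 at an unadjusted p under 0.05).

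Of 26 S phase genes 3 rose and 2 fell, a share near the 17.3% of all genes called. Ccne1, the cyclin that drives entry into S phase, had 8.79, 21.7 and 14.3 counts in WT and 126, 75.8 and 59.4 in the tRNA-Phe-1-1-/- livers (log2 fold change 2.48, SE 0.36, adjusted p = 0.00112, limma). Tk1, the thymidine kinase of dividing cells, had 738, 813 and 738 and 358, 282 and 595 (log2 fold change -0.96, SE 0.22, adjusted p = 0.0122, limma), and Pola1, a subunit of the priming polymerase, 234, 330.1 and 298 and 193, 199 and 208 (log2 fold change -0.51, SE 0.13, adjusted p = 0.0240, limma). In brain and in the livers of the other 2 lines 0 genes of these lists passed the limma test.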

How the data were processed

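RNA-seq libraries (Illumina TruSeq, NovaSeq sequencing) were made from brain and liver of 4 genotypes with 3 mice each. Whether poly(A) RNA was selected or ribosomal RNA removed is not given in the sources used here. The authors trimmed reads with Trim Galore and cutadapt, aligned them with STAR to GRCm38.p6 masked for nuclear copies of mitochondrial DNA, and quantified GENCODE vM24 transcripts with Salmon, strand-specifically and with sequence and GC bias correction. The deposited values are a signal per gene: counts summed with tximport and divided by DESeq2 size factors, separately for each tissue. Salmon divides reads shared by near-identical transcripts by estimation, so single members of such groups are uncertain. All values (100%, tolerance 0.001) were whole multiples of a step per library, from which reads were recovered. The 12 deposited tables of comparisons (fold changes and p-values) were not used.

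Symbols came from GENCODE vM39, which named 93.2% of the Ensembl identifiers, and positions from RefSeq on GRCm38.p6. Members and gene lists were chosen with earlier results of these data known. Genes with a mean of at least 10 were tested with limma 3.58.1 (R 4.3.3) on log2(value + 1), with a variance trend, all 12 samples of a tissue in 1 fit and Benjamini-Hochberg adjustment over all genes at 0.05. Fold changes are on that scale and understate changes of low genes. With 3 mice against 3 an exact permutation test cannot go below p = 0.1, so none was made. Members were named where called, where among the 2 most counted of a family, where among the 6 nearest to tRNA-Phe-3-1 with a position, or where the largest rise or fall of a comparison with WT. Of each background list up to 3 called genes were named, or else the gene with the lowest p in the tRNA-Phe-3-1-/- livers. edgeR 4.0.16 and DESeq2 1.42.0 on recovered reads, other filters, pseudocounts and scalings, the 2 groups alone, a replicate block and leaving out each mouse were alternatives. Shares of all genes are those of the main limma fits, and the shares that edgeR and DESeq2 called are not given. The fit across both tissues and the summing of near copies were added after the data had been seen. On simulated data, limma recovered 84.8% of 2-fold changes (99 of 19267 genes) in the brain table and 83.0% in the liver table (15877 genes). The share that would be recovered among the histone members was not tested, and their precision differed. H3c8 in the tRNA-Phe-3-1-/- livers and H2bc23 in the tRNA-Phe-1-1-/- livers had changes above 2-fold that did not pass. A count of 0 called members therefore does not exclude changes of that size. Of 24 replicate pairs none matched within sampling noise (lowest median chi-square 2.06).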

Additional observations from a re-analysis of the deposited data

Results flagged for a closer look

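The change of H2bc18 in the tRNA-Phe-1-1-/- mice differed between the tissues. In brain it was lower than WT and in liver its mean was higher, and the change in liver minus that in brain was 1.10 on the log2 scale (adjusted p = 0.00380, limma over 14456 genes). Under the other pseudocounts, the higher filter, no variance trend and each mouse left out in turn, the difference ran from 1.00 to 1.19, with adjusted p of at most 0.0131. All 3 knockout brains were below all WT brains, and all 3 knockout livers were above all WT livers. The direction was not particular to this line. The same difference was 0.45 for tRNA-Phe-2-1-/- (adjusted p = 0.455, limma) and 0.48 for tRNA-Phe-3-1-/- (adjusted p = 0.297, limma). Neither passed the test, and all these lines were compared with the same WT mice. The tissues were normalised separately, so each change was taken within its own table. H2bc18 shares no 100-base window with another member.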

How the results depend on the processing

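Of 400 recomputed values of the main results 366 were kept. A count was kept if it was equal or within 1.5 times, and a summed level if it moved by less than the SD of its groups. Of the recomputed values of named genes, 493 kept their sign and side of the threshold. A further 68 lost their call and 1 gained it. In the tRNA-Phe-1-1-/- brains the 2 called members became 0 with no filter on low genes, 0 without a variance trend, 0 with the 2 groups alone and 4 with DESeq2, and from 0 to 3 with 1 mouse left out; it was 0 without any 1 of the 6 brains compared and also without tRNA-Phe-2-1-/- mouse A or tRNA-Phe-3-1-/- mouse A, which enter through the shared variance. The 0 members between the tRNA-Phe-1-1-/- brains and those of tRNA-Phe-2-1-/- mice became 1 at a mean of at least 50, 4 with DESeq2, and 0 to 1 with a mouse left out. Those between the tRNA-Phe-1-1-/- brains and the tRNA-Phe-3-1-/- brains became 2 at a mean of at least 50, 1 after quantile normalisation and 5 with DESeq2, and those between the tRNA-Phe-2-1-/- brains and the tRNA-Phe-3-1-/- brains 1 with DESeq2. In the tRNA-Phe-1-1-/- livers the 5 called against WT became 3 with the 2 groups alone and 2 to 6 with a mouse left out (3 without WT B or tRNA-Phe-1-1-/- C, 2 without WT C or tRNA-Phe-1-1-/- A). The 3 against tRNA-Phe-3-1-/- livers became 1 with the 2 groups alone and 2 to 5 with a mouse left out, and the 3 of the test over 4 genotypes 1 to 4. DESeq2 called 1 member in the tRNA-Phe-3-1-/- livers. The difference between tissues for tRNA-Phe-1-1-/- was called in 1 to 2 members with a mouse left out. The cause of these changes was not tested.

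Replicate letters did not pair the mice: the correlation of deviations of same-letter mice ran from -0.16 to 0.49 in brain (median 0.03, 18 pairs) and from -0.29 to 0.24 in liver (median -0.03). A fit with the letter as a replicate block called 0 members in the tRNA-Phe-1-1-/- brains in place of 2, and 5 in the livers.

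The upward median of the tRNA-Phe-3-1-/- livers, 0.35, was 0.15 over the 36 members with a mean of at least 50 (26 higher) and 0.59 without tRNA-Phe-3-1-/- mouse B. Medians near 0 changed sign. That of the tRNA-Phe-3-1-/- brains, 0.01, was -0.06 (27 higher, 34 lower) after quantile normalisation and ran from -0.09 (without tRNA-Phe-3-1-/- mouse B) to 0.09 (without mouse A) with a mouse left out, and it was also negative without any 1 of the WT brains or without mouse C. That of the tRNA-Phe-2-1-/- livers, -0.04, was 0.05 after quantile normalisation, 0.00 with no filter on low genes, 0.01 without WT mouse B and 0.09 without tRNA-Phe-2-1-/- mouse A. That of the tRNA-Phe-1-1-/- livers, 0.08, was -0.08 without mouse B. In the tRNA-Phe-2-1-/- brains 55 to 59 of 61 members were lower with any mouse left out. With 3 mice a group the precision differed between members: the SE was 2.20 for H2bc24 in brain, where its near copy H2bc23 was low in the mice in which it was high, against 0.09 for H2bc27.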
